A study of Mus musculus with 19 samples.

Results

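Pou5f1 (encoding Oct4), Sox2, Nanog, Sall4 and Utf1 are core factors of the mouse pluripotent state. They were taken by name as 5 of the 12778 genes of a deposited expression matrix, and all 5 were measured in each of 19 libraries. The libraries came from mouse cells in which the miR-290 or the miR-302 microRNA cluster, or both, had been knocked out (KO). Expression was measured by QuantSeq, which counts 3′ ends of polyadenylated RNA, so each transcript gives a read near its end whatever its length. The question set by the series title is what these clusters contribute when fibroblasts are reprogrammed to induced pluripotent stem cells (iPSC). All cells were grown with LIF and fetal bovine serum (FBS).

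The iPSC groups were made from mouse embryonic fibroblasts with Oct4, Sox2 and Klf4 and were collected after more than 18 passages. They were wild type (WT; 3 libraries with no colony label), miR-290KO, miR-302KO and the double KO of both clusters, with 2 colonies of 2 libraries each for every KO. The series text speaks of iPSC or iPSC-like cells. The remaining groups were embryonic stem cells (ESC) of the miR-290KO and miR-302KO genotypes, with 2 libraries each. No WT ESC library was analysed here. A colony is the biological replicate per the series text, so the values of its 2 libraries were averaged, which gave 13 samples. The text excepts the WT controls from independent derivation. In the tests below the spread is shared by all 6 groups. To it the WT libraries may add only differences between libraries of 1 derivation. The p-values of comparisons with WT may therefore leave out differences between WT derivations. The ESC libraries also carry no colony label, and each was taken as a sample.

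Oct4 and Sox2 bind DNA side by side at composite elements, where an octamer-type site for the POU domain of Oct4 adjoins a site for the HMG domain of Sox2. Nanog, a homeodomain protein, and Sall4, a zinc finger protein, bind many of the same enhancers, and the factors sustain one another's genes as well as their own. Utf1 is a chromatin-associated factor whose gene is a classical target of Oct4 and Sox2. In ESC the network is linked to the miR-290 and miR-302 clusters, since Oct4, Sox2 and Nanog bind their promoters, and most microRNAs of both clusters share 1 seed, the stretch of bases that pairs with target messages.

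Levels are given as CPM, a gene's reads scaled to a common library total, computed from reads recovered from the deposited log2 values. Recovered totals ran from 6428467 to 24955795 reads a library, with a median of 17437449. One library stood apart: colony 1 library 2 of miR-302KO iPSC had a mean correlation across genes of 0.856 with its own group, against at least 0.907 in the others. Its 20 most abundant genes took 17.2% of reads, the highest share of the 19 libraries, and the lowest share was 8.62%. Pou5f1 and Nanog values of miR-302KO iPSC moved most with it and are given with and without it. QuantSeq does not measure mature microRNAs, so the deletions could not be checked in these libraries.

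Mature 3p microRNAs of the 2 clusters are shown because their seeds are part of what the groups lack. The set is incomplete. No entry was found for miR-302a-3p or miR-292a-3p, and products of the hairpins Mir290b, Mir291b and Mir292b were not looked up. The miR-290 cluster lies at chr7:3218626-3220841 and the miR-302 cluster at chr3:127545228-127545807, and each overlaps a protein-coding gene of the opposite strand (Nlrp12 and Larp7). Sequences are from RefSeq (GRCm38.p6), and capitals mark the seed, bases 2 to 8.
mmu-miR-291a-3p: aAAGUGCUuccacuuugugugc
mmu-miR-294-3p: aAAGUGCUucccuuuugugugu
mmu-miR-295-3p: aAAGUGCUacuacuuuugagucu
mmu-miR-302b-3p: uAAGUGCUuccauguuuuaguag
mmu-miR-302d-3p: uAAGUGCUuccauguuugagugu
mmu-miR-302c-3p: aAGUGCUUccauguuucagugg
mmu-miR-290a-3p: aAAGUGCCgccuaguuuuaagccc
mmu-miR-293-3p: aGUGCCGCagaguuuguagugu
mmu-miR-367-3p: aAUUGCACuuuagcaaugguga
The first 5 carry the seed AAGUGCU, and they come from both clusters. In miR-302c-3p the seed begins 1 base later in the same run of letters. The seed of miR-290a-3p ends in a different base, and miR-293-3p and miR-367-3p have other seeds.

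The DNA complement of that seed, AGCACTT, was searched in the members' transcripts. It had 0 matches in the 3′ UTR and 0 in the coding sequence of each of the 5 members, whose 3′ UTRs run from 122 bases (Utf1) to 1697 bases (Sall4). Among 11839 genes with an annotated 3′ UTR, 15.7% held a match there and 12.9% held one in the coding sequence. Absence of these letters says nothing of other kinds of target site.

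The promoters of the members are shown because all 5 genes were lowest in the double KO. Of the 5, 4 matched the RefSeq promoter table (GRCm38.p6), and Sall4 did not. Each line gives the 250 bases before an annotated start site. Capitals mark matches, on either strand, to CATTGT (the SOX site), ATGCAAA (the POU site), the SOX-POU composite (CATTGT and ATGCAAA in that order, spaced by 1 base of any kind) or GGGCGG (the GC box). The SOX and POU sites lie inside the composite.
Nanog promoter, chr6:122707239-122707488, plus strand: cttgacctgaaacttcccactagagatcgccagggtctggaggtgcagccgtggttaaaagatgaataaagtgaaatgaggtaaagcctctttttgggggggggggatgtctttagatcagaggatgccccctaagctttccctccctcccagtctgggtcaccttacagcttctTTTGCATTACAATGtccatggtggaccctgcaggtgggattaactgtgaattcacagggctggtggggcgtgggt
Pou5f1 promoter, chr17:35505782-35506031, plus strand: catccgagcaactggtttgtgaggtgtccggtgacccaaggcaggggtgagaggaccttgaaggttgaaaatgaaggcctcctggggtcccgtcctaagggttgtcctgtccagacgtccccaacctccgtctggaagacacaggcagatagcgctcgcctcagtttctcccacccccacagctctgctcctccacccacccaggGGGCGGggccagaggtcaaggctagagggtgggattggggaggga
Sox2 promoter, chr3:34649745-34649994, plus strand: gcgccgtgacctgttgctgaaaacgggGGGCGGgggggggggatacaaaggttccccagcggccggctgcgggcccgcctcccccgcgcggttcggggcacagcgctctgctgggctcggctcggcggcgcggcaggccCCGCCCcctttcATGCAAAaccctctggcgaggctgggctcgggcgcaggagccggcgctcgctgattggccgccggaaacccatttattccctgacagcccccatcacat
Utf1 promoter, chr7:139943606-139943855, plus strand: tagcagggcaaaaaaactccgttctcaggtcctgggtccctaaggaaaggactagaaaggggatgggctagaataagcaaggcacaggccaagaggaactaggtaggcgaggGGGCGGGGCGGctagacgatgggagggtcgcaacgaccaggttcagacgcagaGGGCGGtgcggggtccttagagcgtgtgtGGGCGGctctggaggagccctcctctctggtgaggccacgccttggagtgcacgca
The composite was found in Nanog, where it lies on the minus strand as TTTGCATTACAATG, beginning at base -75 from the start site shown. Of 32851 windows of 300 bases (250 before to 50 after a start site) it was present in 2, or 0.00609%, and both were overlapping windows of Nanog. The shorter ATGCAAA, held by 4.63% of windows, also began at base -99 of Sox2. CATTGT was held by 12.6% and the GC box by 35.7% of windows. The table also has later start sites for Nanog and Pou5f1. Before that of Pou5f1, at chr17:35508557-35508806 and not shown, CATTGT matched once, on the minus strand, beginning at base -158. Utf1 had 4 matches to the GC box, 2 of them overlapping. ATGCAAAT, the full octamer, was held by 1.74% of windows and by none of those of the 4 members searched. A match is a description of letters and no evidence of binding.

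Pou5f1, at chr17:35506018-35510772 on the plus strand (GRCm38), is the POU factor on which the pluripotent state depends. Its level was 697, 500 and 742 CPM in the 3 WT iPSC libraries. The double KO libraries had 30.02 and 24.04 CPM in colony 1 and 23.9 and 21.3 CPM in colony 2. All 4 double KO libraries lay far below the WT libraries, with no overlap. The miR-290KO iPSC libraries had 908 and 692 CPM in colony 1 and 2440 and 1490 CPM in colony 2, so the colonies did not overlap and colony 2 was above every WT library. In miR-302KO iPSC the values were 625 and 2448 CPM in colony 1 and 1055 and 573 CPM in colony 2. Here the libraries of 1 colony differed more than the colonies did. ESC were close to WT iPSC, at 866 and 673 CPM (miR-290KO) and 668 and 678 CPM (miR-302KO). By group mean ± SD over samples, the order from low to high was double KO (24.8 ± 3.13 CPM, n = 2), WT iPSC (646 ± 129 CPM, n = 3), miR-302KO ESC (673 ± 7.21 CPM, n = 2), miR-290KO ESC (769 ± 137 CPM, n = 2), miR-302KO iPSC (1175 ± 511 CPM, n = 2) and miR-290KO iPSC (1383 ± 824 CPM, n = 2). Above the double KO, neighbours in this order lay within 1 SD of each other.

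Sox2, at chr3:34650405-34652461 on the plus strand, encodes the HMG-box partner of Oct4. WT iPSC libraries had 391, 326 and 424 CPM. The double KO libraries had 36.4 and 20.0 CPM in colony 1 and 48.6 and 39.4 CPM in colony 2. The groups did not overlap, and the 2 libraries of double KO colony 1 differed more than those of colony 2. The single KO iPSC stayed in the WT range or near it, at 376, 283, 419 and 402 CPM (miR-290KO) and 333, 306, 352 and 455 CPM (miR-302KO). ESC had 411 and 375 CPM (miR-290KO) and 468 and 369 CPM (miR-302KO). All 5 group means other than the double KO fell between 361 ± 59.5 CPM (miR-302KO iPSC, n = 2) and 418 ± 70.3 CPM (miR-302KO ESC, n = 2), with overlapping spreads, against 36.1 ± 11.2 CPM (n = 2) in the double KO.

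Nanog, at chr6:122707489-122714633 on the plus strand, encodes the homeodomain factor that lets ESC self-renew at lowered LIF signalling. It had 706, 642 and 705 CPM in WT iPSC. In the double KO it had 2.53 and 2.85 CPM in colony 1 and 2.35 and 1.81 CPM in colony 2, from 151 reads over the 4 libraries. The double KO libraries were the lowest 4 of the 19 by a wide margin. The miR-290KO iPSC had 671 and 451 CPM in colony 1 and 405 and 492 CPM in colony 2. The miR-302KO iPSC had 871 and 151 CPM in colony 1 and 581 and 964 CPM in colony 2. The lowest of these, 151 CPM, came from the library that stood apart. ESC had 583 and 544 CPM (miR-290KO) and 1048 and 758 CPM (miR-302KO). The order of group means was double KO (2.39 ± 0.43 CPM, n = 2), miR-290KO iPSC (505 ± 79.5 CPM, n = 2), miR-290KO ESC (563 ± 27.3 CPM, n = 2), miR-302KO iPSC (642 ± 185 CPM, n = 2), WT iPSC (684 ± 36.3 CPM, n = 3) and miR-302KO ESC (903 ± 205 CPM, n = 2). Neighbours above the double KO overlapped in their spreads.

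Sall4, at chr2:168748332-168767943 on the minus strand, encodes a zinc finger factor that binds Oct4 and Nanog. WT iPSC had 406, 273 and 388 CPM. The double KO had 32.4 and 44.5 CPM in colony 1 and 31.6 and 25.9 CPM in colony 2. These groups did not overlap. Single KO iPSC ran from 262 to 385 CPM (miR-290KO) and from 246 to 385 CPM (miR-302KO), and the 4 ESC libraries from 306 to 352 CPM. The 5 group means other than the double KO (33.6 ± 6.86 CPM, n = 2) lay between 304 ± 39.0 CPM (miR-290KO iPSC, n = 2) and 356 ± 72.3 CPM (WT iPSC, n = 3), within 1 SD of their neighbours.

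Utf1, at chr7:139943789-139945112 on the plus strand, had 110, 90.8 and 103 CPM in WT iPSC. In the double KO it was nearly unread, with 0 and 0.14 CPM in colony 1 and 0.06 and 0.24 CPM in colony 2, from 0, 2, 1 and 4 reads. A count of 0 there allows up to 0.19 CPM (3 reads). The miR-290KO libraries stood above WT, with 152 and 140 CPM in colony 1 and 179 and 180 CPM in colony 2 of the iPSC and 136 and 137 CPM in the ESC. The miR-302KO iPSC had 95.8 and 110 CPM in colony 1 and 117 and 72.1 CPM in colony 2, and the miR-302KO ESC had 68.8 and 143 CPM. These overlapped WT iPSC. Group means ran from the double KO (0.11 ± 0.055 CPM, n = 2) to miR-302KO iPSC (98.8 ± 5.76 CPM, n = 2), WT iPSC (101 ± 9.86 CPM, n = 3), miR-302KO ESC (106 ± 52.7 CPM, n = 2), miR-290KO ESC (136 ± 0.77 CPM, n = 2) and miR-290KO iPSC (163 ± 23.8 CPM, n = 2). Neighbours above the double KO overlapped in their spreads, other than the last 2 named, whose libraries did not overlap either.

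**Figure D1:**
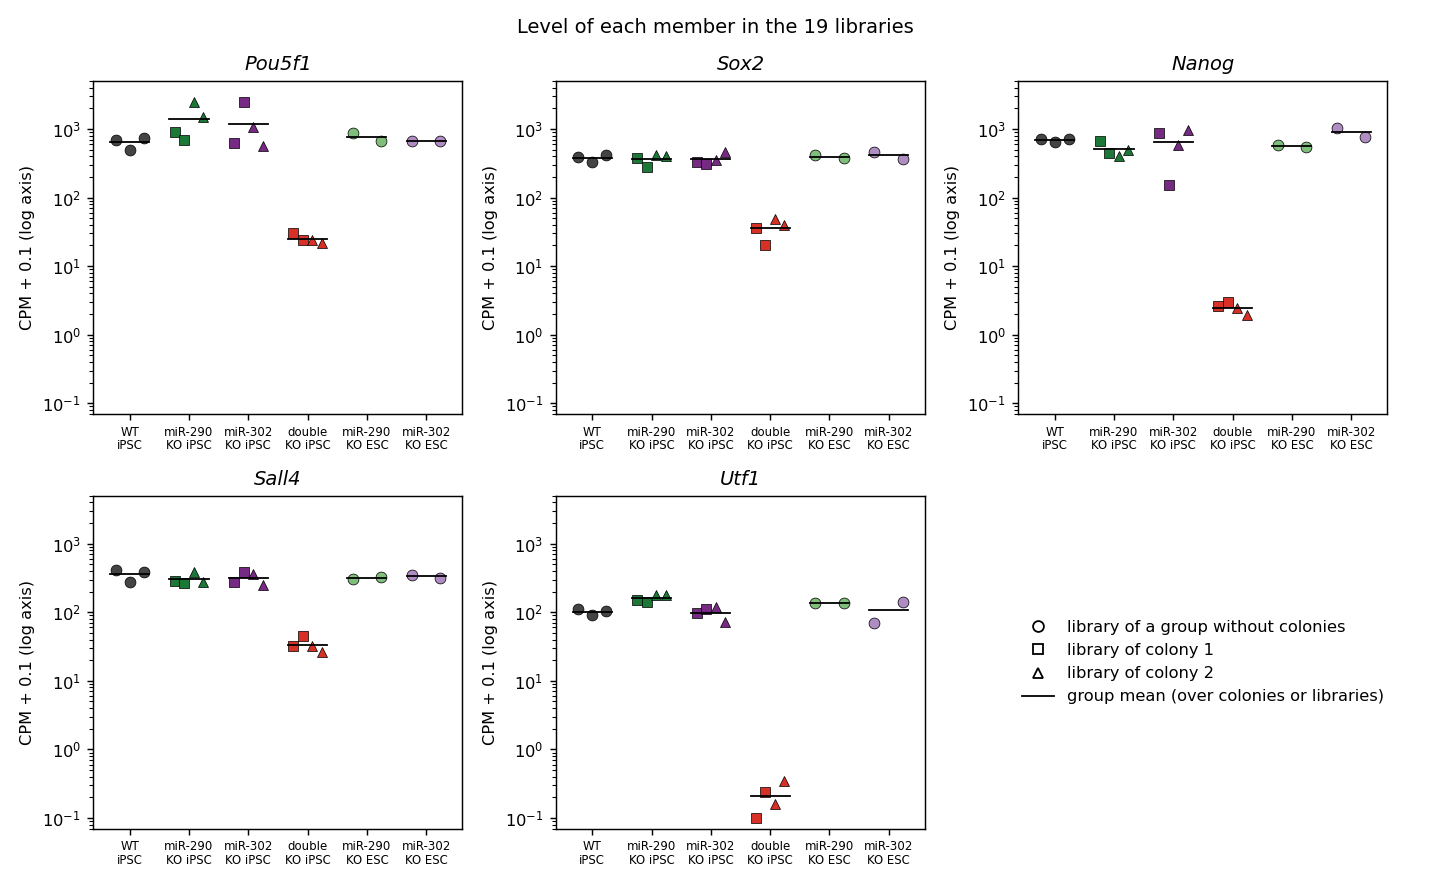
Level of each of the 5 core factors in the 19 libraries, in CPM plus 0.1 on a log axis, by group; squares and triangles are libraries of colony 1 and colony 2, circles are libraries of groups without colonies, and bars are group means. The 4 double KO libraries are the lowest in every panel, and the miR-302KO iPSC library with 2448 CPM of Pou5f1 is the one with 151 CPM of Nanog.

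Against WT iPSC, all 5 core factors were lower in the double KO. Here and below, a fall or a rise is a difference between groups of separate cells. No line was measured before and after the loss of a cluster. Of all 12778 genes, 49% were called, 21.5% lower and 27.4% higher (limma on log2 values, adjusted p under 0.05). The log2 change was -8.75 for Utf1 (SE 0.28; adjusted p = 2.13e-10) and -8.10 for Nanog (SE 0.27; adjusted p = 2.5e-10). It was -4.69 for Pou5f1 (SE 0.33; adjusted p = 2.42e-07), -3.46 for Sox2 (SE 0.23; adjusted p = 1.46e-07) and -3.40 for Sall4 (SE 0.21; adjusted p = 6.72e-08). The 5 thus formed 2 tiers: the mean level in the double KO was 0.109% of the WT mean for Utf1 and 0.349% for Nanog, but 3.84% for Pou5f1, 9.45% for Sall4 and 9.48% for Sox2. These log2 changes include a small prior and understate the change of Utf1, whose reads pooled over the libraries gave a WT to double KO ratio of 923 (exact 95% interval 448 to 2297, counting error only). On log2 of CPM plus 1 the Utf1 change was -6.53. In these bulk samples, fewer cells with a transcript and less of it per cell cannot be told apart.

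Among all 12778 genes, 14 had a lower log2 change than Utf1 and 36 a lower one than Nanog. For Pou5f1 the number was 411, for Sox2 776 and for Sall4 799. The gap between groups was wide for each factor. The lowest of the 15 other libraries exceeded the highest double KO library 286-fold for Utf1, 53.0-fold for Nanog, 16.6-fold for Pou5f1, 5.84-fold for Sox2 and 5.53-fold for Sall4. The median change of all genes was 0.16, so centring the data on it would lower each value by that amount. The 5 calls held in each of the 34 alternative settings, which include leaving out each colony and each library.

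The authors' deposited table for the same comparison lists all 5 genes. Its log2 fold changes are -10.15 for Utf1 (SE 0.58), -8.47 for Nanog (SE 0.20), -4.99 for Pou5f1 (SE 0.19), -3.70 for Sall4 (SE 0.22) and -3.69 for Sox2 (SE 0.26). The direction and the division into 2 tiers are those of the limma fit on the same libraries.

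Double KO cells were also compared with each single KO, so that the genotypes differ by 1 cluster. The groups are also separate colonies. All 5 factors were lower where miR-302 was also missing (double KO against miR-290KO iPSC; 16.8% of all genes were called lower). The log2 change was -9.43 for Utf1, -7.63 for Nanog, -5.63 for Pou5f1, -3.41 for Sox2 and -3.18 for Sall4. All 5 were likewise lower where miR-290 was also missing (double KO against miR-302KO iPSC; 18.4% of all genes were called lower). There the log2 change was -8.69 for Utf1, -7.71 for Nanog, -5.31 for Pou5f1, -3.37 for Sox2 and -3.24 for Sall4. The highest adjusted p of these 10 values was 5.7e-07. The 3 comparisons share the double KO samples, so they are not independent of each other.

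Whether the double KO changed by more than the sum of both single KO changes was tested as a term of the same fit. The term was below 0 for all 5 factors, against 11.7% of all genes called lower in it. For Utf1 it was -9.37 (SE 0.41) and for Nanog -7.24 (SE 0.40). For Pou5f1 it was -6.26 (SE 0.48), for Sox2 -3.33 (SE 0.34) and for Sall4 -3.02 (SE 0.31), with adjusted p of 2.35e-05 or less. For Pou5f1 and Utf1 this term was larger in size than the double KO change itself, since their single KO changes summed to above 0.

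**Figure D2:**
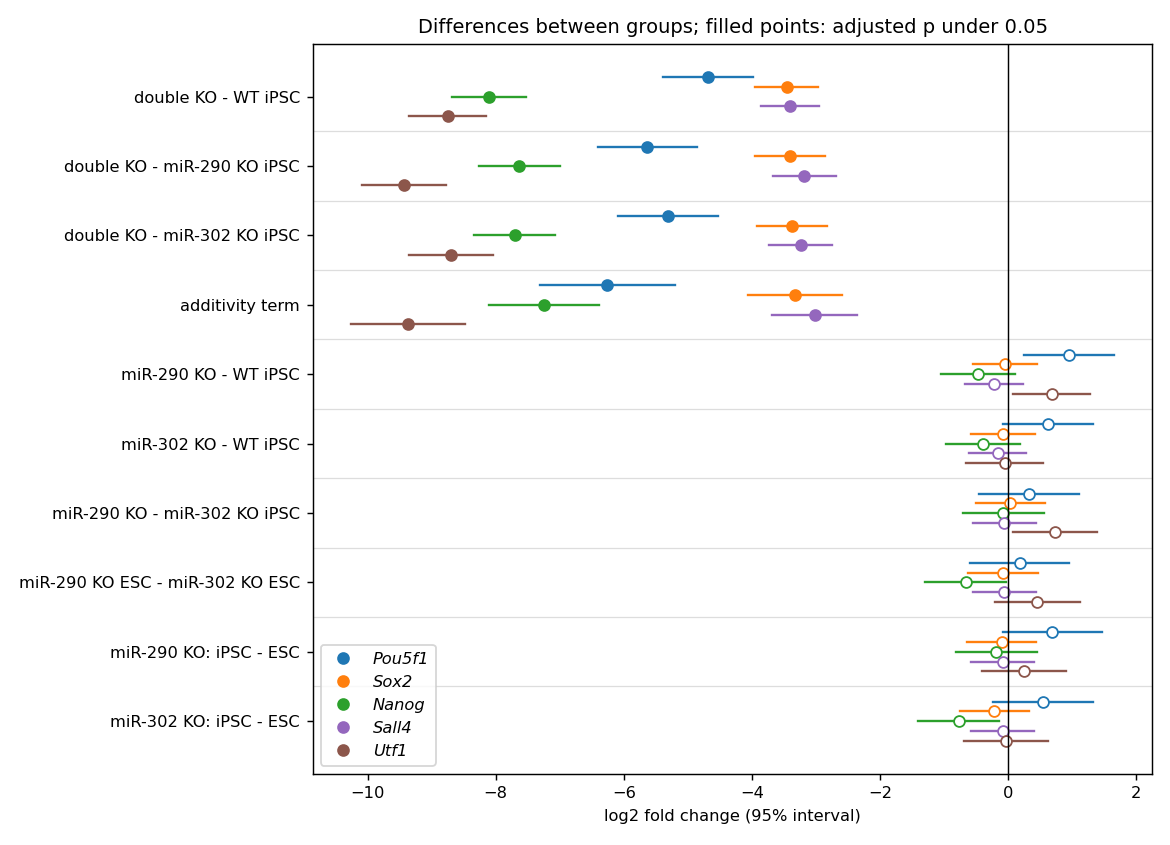
Log2 fold changes of the 5 core factors from the limma fit in 10 comparisons, with 95% intervals; filled points have an adjusted p under 0.05, and the additivity term is what remains of the double KO change once the changes of miR-290KO and miR-302KO iPSC are subtracted. The 20 points of comparisons with the double KO and of the additivity term are all filled and lie at or below -3.02, while no point of the other 6 comparisons is filled.

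The single KO iPSC were then compared with WT iPSC, which asks whether 1 cluster alone suffices for WT levels of the core factors. None of the 5 was called in miR-290KO iPSC, where 1.57% of all genes were called in either direction, or in miR-302KO iPSC, where 0.0313% were. An unadjusted p under 0.05 was reached by 2 of the 5 (Pou5f1 and Utf1) in miR-290KO and by 0 in miR-302KO iPSC. In miR-290KO iPSC the log2 difference from WT was 0.95 for Pou5f1 (95% interval 0.24 to 1.66; limma, adjusted p = 0.168) and 0.68 for Utf1 (0.08 to 1.28; adjusted p = 0.244). It was -0.46 for Nanog (-1.04 to 0.11; adjusted p = 0.415), -0.22 for Sall4 (-0.67 to 0.23) and -0.05 for Sox2 (-0.54 to 0.45). All 4 miR-290KO iPSC libraries had more Utf1 than any WT library, and 3 of 4 had less Nanog than any WT library. The intervals leave room for a change of Pou5f1 by over 3-fold and limit that of Sox2 to below 1.5-fold. The Pou5f1 difference was 1.58 with colony 2 alone and 0.32 with colony 1 alone. In both cases the arm is 1 sample, assumed to vary like the other groups, which supply the spread. The authors' deposited table, from another model, lists Nanog as lower in this comparison, at -0.59 on the log2 scale (SE 0.20; adjusted p = 0.041), and none of the other 4.

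In miR-302KO iPSC the log2 difference from WT was 0.62 for Pou5f1 (95% interval -0.09 to 1.33; limma, adjusted p = 0.373) and -0.39 for Nanog (-0.97 to 0.19; adjusted p = 0.476). It was -0.16 for Sall4 (-0.61 to 0.28), -0.08 for Sox2 (-0.58 to 0.41) and -0.06 for Utf1 (-0.66 to 0.54). Without colony 1 library 2, the library that stood apart, the Pou5f1 difference was 0.13 and the Nanog difference 0.24, so the sign for Nanog turned. With colony 1 alone, whose libraries had 871 and 151 CPM, Nanog was at -0.91. This arm too is 1 sample assumed to vary like the other groups. The authors' deposited table for this comparison, of 43 genes, lists none of the 5.

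Between the single KO genotypes no factor was called, in iPSC (2.25% of all genes were) or in ESC (0.587%). At an unadjusted p under 0.05 there was 1 factor in each, Utf1 in iPSC and Nanog in ESC. Utf1 was higher with miR-290 missing than with miR-302 missing by 0.73 in iPSC (95% interval 0.08 to 1.39; limma, adjusted p = 0.219) and by 0.46 in ESC (-0.20 to 1.12; adjusted p = 0.576). In the ESC, 1 miR-302KO library lay above both miR-290KO libraries for Utf1 and 1 below. Nanog was lower in miR-290KO than in miR-302KO ESC by a log2 difference of -0.66 (-1.30 to -0.03; adjusted p = 0.366), and its libraries did not overlap there. In iPSC the Nanog difference was -0.07 (-0.71 to 0.56), and the libraries overlapped. Without the library that stood apart it was -0.70 (adjusted p = 0.0772), close to the value in ESC. The differences of Pou5f1, Sox2 and Sall4 between the genotypes were 0.33, 0.03 and -0.06 in iPSC and 0.18, -0.08 and -0.06 in ESC. Without that library the Pou5f1 difference in iPSC was 0.82 and that of Sall4 turned to 0.06, neither of them called. No factor was called for a genotype difference that itself differed between iPSC and ESC, and of all genes 0% were (552 at an unadjusted p under 0.05, with 0 of the 5 factors). That term was 0.59 for Nanog (-0.30 to 1.48), and without the library that stood apart it turned to -0.042. For Pou5f1 it was 0.15, and 0.64 without that library.

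The reprogrammed cells were also set against ESC of the same genotype. No factor was called in either genotype, and neither was any other gene (0% of 12778), although 492 genes in miR-290KO and 1343 in miR-302KO cells had an unadjusted p under 0.05. Of the factors, only Nanog in miR-302KO cells was among those. For miR-290KO the iPSC minus ESC difference was 0.69 for Pou5f1 (95% interval -0.09 to 1.46), 0.25 for Utf1 (-0.41 to 0.90), -0.18 for Nanog (-0.82 to 0.45), -0.10 for Sox2 (-0.64 to 0.44) and -0.08 for Sall4 (-0.57 to 0.41). For miR-302KO it was 0.54 for Pou5f1 (-0.23 to 1.32), -0.77 for Nanog (-1.41 to -0.14), -0.22 for Sox2 (-0.76 to 0.32), -0.09 for Sall4 (-0.58 to 0.41) and -0.03 for Utf1 (-0.69 to 0.63). Without colony 1 library 2, Pou5f1 was at 0.051 and Nanog at -0.14. With colony 1 alone the Nanog value was -1.30, where the miR-302KO iPSC arm is again 1 sample assumed to vary like the other groups.

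Among the 15 libraries other than the double KO, the factors differed in how steady they were. The highest library exceeded the lowest by 1.65-fold for Sall4, 1.65-fold for Sox2 and 2.62-fold for Utf1, but by 4.90-fold for Pou5f1 and 6.94-fold for Nanog. The libraries with the most Pou5f1 were colony 1 library 2 of miR-302KO iPSC (2448 CPM) and colony 2 library 1 of miR-290KO iPSC (2440 CPM), and they were the lowest 2 of these 15 for Nanog (151 and 405 CPM). Within miR-302KO colony 1, Pou5f1 was lower by 1.97 and Nanog higher by 2.53 on the log2 scale in library 1 than in library 2. These are large steps, but 23.5% and 15.8% of 12149 genes differed by as much between that pair of libraries, whose median absolute difference was 0.99. In the other 5 colonies that median was between 0.19 and 0.44. The same factor pair moved in opposite directions in both colonies of miR-302KO and in colony 2 of miR-290KO, and in the same direction in colony 1 of miR-290KO. Sox2 in the high Pou5f1 libraries was 306 and 419 CPM, within the range of the others. The cells were reprogrammed with Oct4, Sox2 and Klf4, and whether reads from those transgenes enter the levels of Pou5f1 or Sox2 was not tested.

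**Figure D3:**
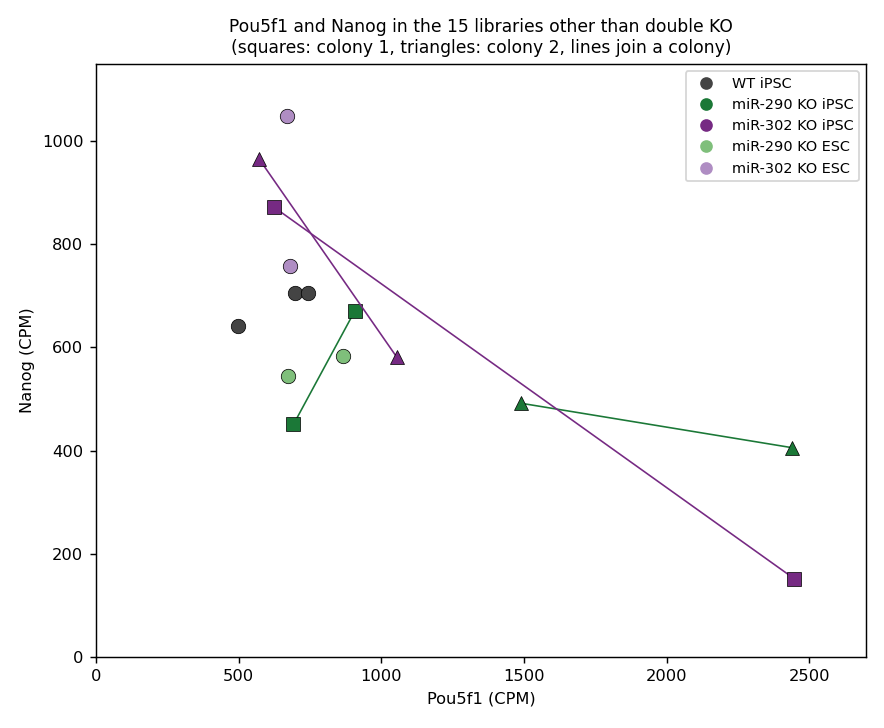
Nanog against Pou5f1, both in CPM, in the 15 libraries other than double KO; lines join the 2 libraries of a colony, squares are colony 1 and triangles colony 2. The point at 2448 CPM of Pou5f1 and 151 CPM of Nanog is the library that stood apart, and 3 of the 4 colonies slope downwards.

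The low levels of the factors in the double KO were alike in both colonies. Of the WT mean, Pou5f1 was at 4.65% and 3.72% in the libraries of colony 1 and at 3.70% and 3.30% in those of colony 2. Nanog was at 0.369%, 0.417%, 0.344% and 0.264% in the same order. Sox2 was the most uneven of the 4 factors with more than a few reads, at 9.57%, 5.25%, 12.8% and 10.3%. Sall4 was at 9.12%, 12.5%, 8.90% and 7.28%.

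Markers of other cell types were read beside these falls, and their part in them was not tested. Of 8 other ESC markers, 7 were called lower and 1 (L1td1) higher in the double KO, with a median log2 change of -7.09. The 7 with recovered reads summed to 679 to 933 CPM in the double KO against 1972 to 2281 CPM in WT iPSC. Most of the double KO sum was L1td1, at a mean of 601 CPM against 417 CPM in WT, and Fgf4. The authors' deposited table lists the other 7 of the 8 ESC markers as lower and does not list L1td1. Esrrb, Dppa4, Zfp42, Dppa5a, Fgf4 and Tdgf1 are also in the network lists read below, so those counts share genes with this one. Of 14 fibroblast markers, 4 were in the matrix, of which 2 were called lower, and they summed to 1.44 to 21.4 CPM in the double KO and 6.74 to 9.17 CPM in WT. The authors' deposited table lists 6 fibroblast markers for this comparison, 3 higher and 3 lower. On the log2 scale the higher ones were Dcn (7.30), Col6a1 (7.09) and Fbn1 (2.64). The lower ones were Thy1 (-4.72), Pdgfrb (-4.02) and Col1a1 (-2.84). Dcn and Col6a1 were not in the matrix, so the fibroblast sums leave them out. Of 9 trophoblast markers measured (10 listed), 5 were called lower and 1 higher, and they summed to 29.9 to 88.7 CPM against 110 to 197 CPM. Of 4 primitive endoderm markers measured (10 listed), 3 were called lower, with a median log2 change of -2.49 and Gata4 at 0 reads in all 4 double KO libraries. Their sum, 68.0 to 95.1 CPM against 65.0 to 77.4 CPM, was nearly all Lamb1, which was not called. Gata6, Sox17, Sox7, Pdgfra, Foxa2 and Cubn were not in the matrix, and the authors' deposited table does not list them.

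Genes of the factors' network were read from 4 lists of textbook relations. Genes known to carry Oct4-Sox2 elements or bound enhancers moved most: of 20, 16 fell and 1 rose in the double KO against WT, with a median log2 change of -4.51 against 0.16 over all genes. Over all genes 21.5% fell and 27.4% rose. Dppa5a (a germline and ESC RNA-binding protein) fell by 10.22, Lin28a (which blocks let-7 maturation) fell by 8.96 and Tcl1 (an Akt co-activator) fell by 7.43. Gdf3, a TGF-beta family ligand, rose by 1.74 (SE 0.21; limma, adjusted p = 2.95e-05). Fgf4, whose enhancer is the classical site of joint Oct4 and Sox2 binding, fell by 0.63 (SE 0.23; adjusted p = 0.0391). Trim71, Phc1 and Jarid2 were not called.

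Of 25 partner proteins of Oct4, Sox2 and Nanog, 9 fell, 4 rose and 12 were not called, with a median of -0.08. The 13 called of 25 lie near the 49% called over all genes. The falls were led by Esrrb (an orphan nuclear receptor; -8.94), Dppa4 (a chromatin factor; -7.64) and Prdm14 (a repressor of the primed state). Prdm14 had 682 reads in WT and 2 in the double KO, a ratio of 418 (exact 95% interval 115 to 3463, counting error only). Hdac2, a histone deacetylase, rose by 1.31 (SE 0.21; limma, adjusted p = 0.000243), and Trp53bp1 rose by 0.93 (SE 0.29; adjusted p = 0.0177). The count of 13 called genes was 8 without double KO colony 2.

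Of 19 POU, SOX and SALL paralogs measured (24 listed), 8 rose, 6 fell and 5 were not called, with a median of 0.12, beside 27.4% of all genes higher and 21.5% lower. Pou3f2 (5.29), Sox11 (4.81) and Sox1 (4.59), all known from neural cells, had the largest rises. Sox15 (-6.83) and Pou3f1 (-5.59) had large falls. Pou2f2 went from 284 reads in WT to 1 in the double KO, a ratio of 349 (exact 95% interval 62.1 to 13814, counting error only). The treatment of reads shared by paralogs is not given in the sources used here.

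Of 14 measured lineage genes that the core factors are known to hold low in ESC (20 listed), 9 fell, 2 rose and 3 were not called in the double KO, with a median of -2.45, beside 21.5% of all genes lower and 27.4% higher. The keratin genes Krt18 (-6.91) and Krt8 (-6.20) and the mesoderm gene T (Brachyury; -4.88) fell. Tfap2a (an ectoderm and neural crest factor) rose by 4.12 and Bmp4 by 3.20. The other listed genes were absent from the matrix, and this list was not looked up in the authors' deposited table. The matrix also lacks some genes that the authors' deposited table lists as higher in the double KO, such as Dcn and Col6a1. Rises counted here and over all genes therefore cover only genes in the matrix. Pou4f2 (a paralog) and Gata4 (a lineage gene) had 0 reads in the double KO, and both already lay below the median of their list. Setting them lower still, at the bound of 3 reads over the group, could not move these medians.

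**Figure D4:**
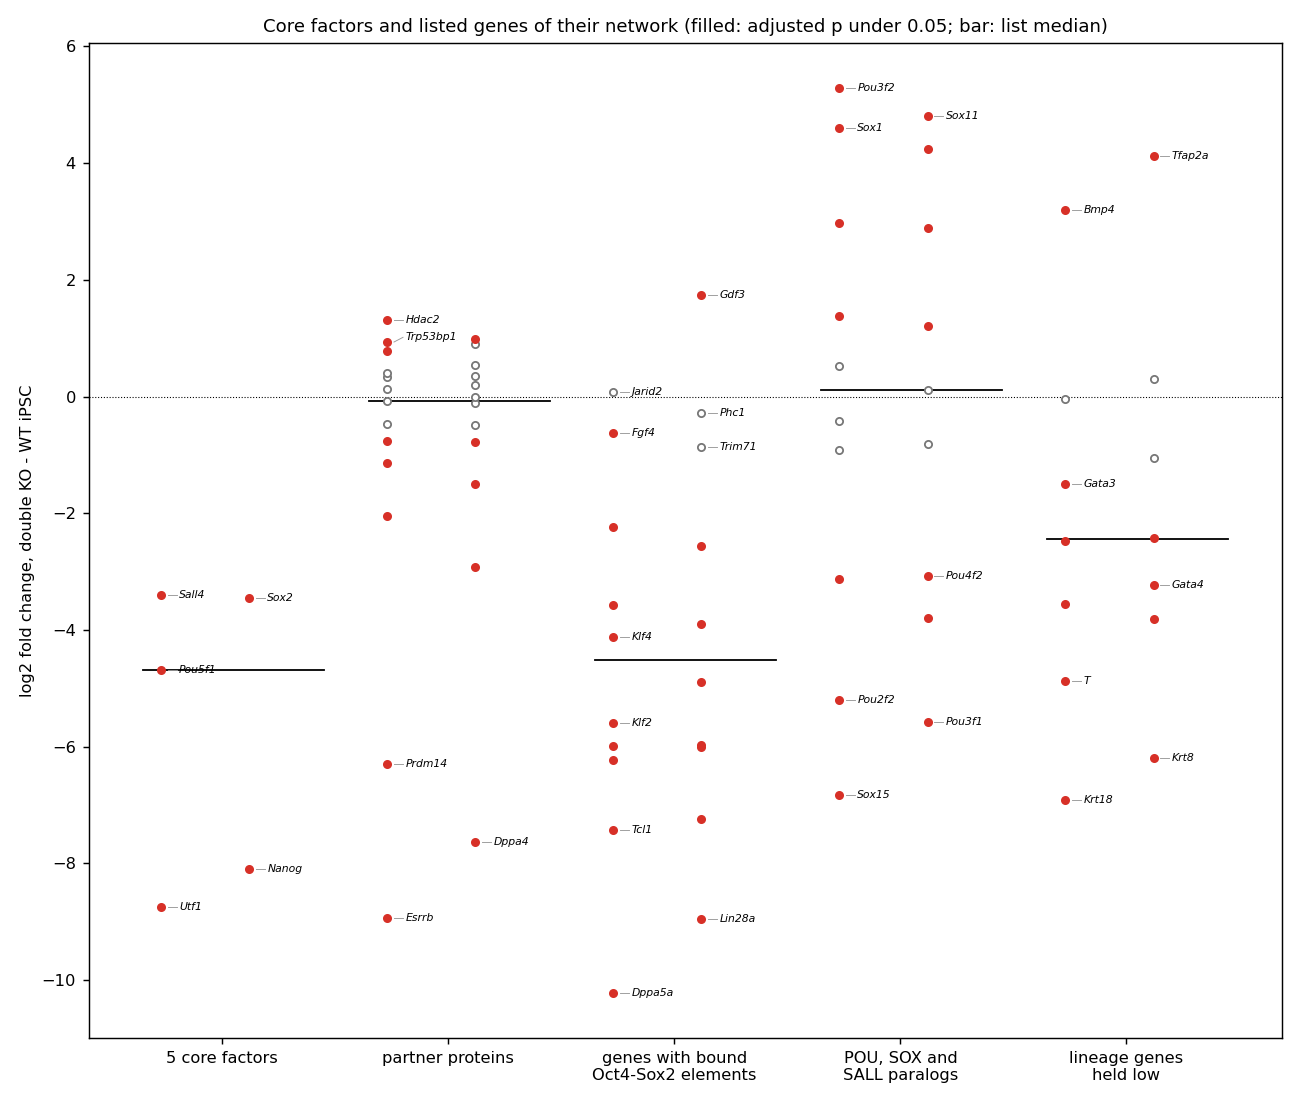
Log2 fold change in double KO against WT iPSC for the 5 core factors and the measured genes of 4 lists, 1 point a gene, with the genes named in the text labelled; filled points have an adjusted p under 0.05, and bars are medians. The list with bound Oct4-Sox2 elements has its median at -4.51, close to that of the core factors, while partner proteins (-0.08) and paralogs (0.12) have theirs near 0.

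In miR-290KO against WT iPSC, 4 of the 78 measured genes of the lists were called, beside 1.57% of all genes, and 21 had an unadjusted p under 0.05, beside 2136 of all 12778 genes. The 4 called were all higher: Sox1 by 3.23 (SE 0.41; limma, adjusted p = 0.00499), Sox11 by 2.38 (adjusted p = 0.00599), Gata3, a trophoblast factor, by 2.35 (adjusted p = 0.00689) and Tfap2a by 1.94 (adjusted p = 0.0195). No partner protein or gene with a bound element was called. Whether the calls of Sox1, Sox11, Gata3 and Tfap2a hold in the alternative settings was not examined. Over all genes, the 201 calls of this comparison became 46, 82 and 79 without WT library 1, 2 or 3. With each library taken as a sample, the calls numbered 409. In miR-302KO against WT iPSC, 0 of the 78 measured genes of the 4 lists were called by limma, and 16 had an unadjusted p under 0.05, beside 1928 of all 12778.

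The genes whose pattern over the 13 samples was most like each factor were taken by Pearson correlation of log2 values among 12144 genes. Such values are set mainly by the 2 double KO samples, which share their low levels, so they are descriptions, and the value over the 11 other samples follows each in parentheses. Platr26, a long noncoding RNA of pluripotent cells, was nearest to Pou5f1 (0.991, and 0.919 without the double KO), ahead of Snhg11 (0.985, and 0.826) and Tmem173 (0.984, and 0.771). Platr26 was high where Pou5f1 was: it had 34.1 and 21.5 CPM in colony 2 of miR-290KO iPSC and 32.1 CPM in the library that stood apart, against 9.84 to 17.01 CPM in the other 12 libraries outside the double KO. Nearest to Sox2 were Smtnl2 (0.997, and 0.838), Tcl1 (0.995, and 0.622) and Sgk1 (0.994, and 0.562).

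Foxd3, a forkhead factor of ESC and neural crest, was nearest to Nanog (0.996, and 0.900), followed by Fam169b (0.994, and 0.639) and Esrrb (0.993, and 0.461). It had 0 reads in the 4 double KO libraries and 1467 in WT, at least 600-fold lower at a floor of 3 reads over the group. In the library that stood apart Foxd3 was at 3.78 CPM, as Nanog was low there, against 19.6 CPM or more in the other 14. Nearest to Sall4 were Rpp25 (0.992, and 0.669), Lin28a (0.991, and 0.663) and Esrrb (0.990, and 0.394). Nearest to Utf1 were Dnmt3l (0.998, and 0.898), Cnp (0.996, and 0.744) and Dppa4 (0.996, and 0.539). Dnmt3l, the cofactor of de novo DNA methylation, had 387 to 496 CPM in miR-290KO iPSC against 224 to 262 CPM in WT, and was at 453 CPM in the library that stood apart.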

How the data were processed

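QuantSeq 3′ end libraries (200 ng of RNA, single-end reads of 50 bp) of 6 groups were analysed. The submitters' processing notes name Trim Galore 0.66, STAR, Salmon 1.4.0, FastQC 0.11.9, MultiQC, limma, DESeq2 1.34.0 and the mm10 build, without their order. The authors' deposited matrix holds log2 values, which per their pattern are log2 CPM with a small prior and a constant per gene shared by all libraries. In 12231 of 12778 genes (95.7%) they gave whole reads within 0.02 in at least 13 libraries, and CPM were computed from these. Besides the columns of the 19 libraries, 6 further columns of the matrix were not used, and 19 gene names turned into dates were kept. The authors' deposited comparison tables hold, per the file headers, mean normalized counts (signal), log2 fold changes, a test score and p-values, limited to an adjusted p of 0.05 or less. Mean normalized counts were used to check the recovered reads: 99.99% of genes in the double KO table lay within 5%.

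The main test was limma 3.58.1 in R 4.3.3 on the log2 values, with colonies averaged (13 samples, 6 groups, 7 residual degrees of freedom), a trend of the spread, and Benjamini-Hochberg adjustment over 12778 genes in each of 11 comparisons. A count model had been an option in case of raw counts and was not run. The test was checked on simulated data. The members, the gene lists and the rule for named genes were chosen with earlier results of these data known. Named were the 5 members, of each list up to 3 genes with the largest called rise and fall in the double KO, list genes called in a single KO, and the 3 genes nearest to each member. Other names were chosen after their values were seen. One gene that the rule would name is not reported here. Sequence motifs were searched with Python 3.11.15.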

Additional observations from a re-analysis of the deposited data

Results flagged for a closer look

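For all 5 core factors the change in the double KO differed from the sum of the changes in both single KO groups, by a test of that difference itself. The term (log2, limma) was -6.26 for Pou5f1, -3.33 for Sox2, -7.24 for Nanog, -3.02 for Sall4 and -9.37 for Utf1. Of all genes, 23.6% passed the same test in either direction. No group of 4 or more samples was present, so no sample could be examined as an outlier within its group.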

How the results depend on the processing

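All 5 core factors kept their calls and direction in the 3 comparisons of the double KO and in the additivity term under all 34 alternatives. These were each library as a sample (also with an estimated correlation within a colony), median-of-ratios scaling, log2 of CPM plus 1, a filter of 10 reads in 2 libraries, sample weights, no trend, only the groups compared, each sample and each colony library left out, and a replicate block. Over these settings the double KO change from WT ran from -9.00 to -6.53 for Utf1 (the latter with log2 of CPM plus 1), from -8.34 to -7.67 for Nanog and from -4.93 to -4.56 for Pou5f1.

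Replicate numbers did not pair the samples: differences between numbers 1 and 2 correlated across genes between groups from -0.27 to 0.17. With the replicate block, Sox2 turned to 0.034 in miR-290KO and to 0.00039 in miR-302KO against WT iPSC, the block changed no call of the 5 factors, and it left 55 genes called in miR-290KO and 2 in miR-302KO. With median-of-ratios scaling, Sox2 turned to -0.15 between single KO iPSC, Sall4 to 0.029 and Utf1 to 0.083 between miR-302KO iPSC and ESC, and in the genotype by cell type term Sox2 turned to -0.012 and Sall4 to -0.12. All of these were near 0 and none was called in any setting.

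Leaving out 1 sample or library at a time gave these ranges of log2 differences where a sign or call changed. In miR-290KO against WT iPSC, Pou5f1 ran from 0.32 to 1.58 and Sox2 from -0.21 to 0.12, with 0 to 1 factors called. In miR-302KO against WT iPSC, Sox2 ran from -0.25 to 0.081, Nanog from -1.02 to 0.24 and Utf1 from -0.23 to 0.12, with 0 to 1 called. Between single KO iPSC, Pou5f1 ran from -0.31 to 0.96, Sox2 from -0.13 to 0.20, Nanog from -0.70 to 0.56 and Sall4 from -0.20 to 0.08. Between ESC, Pou5f1 ran from -0.0015 to 0.36, Sox2 from -0.25 to 0.091, Sall4 from -0.15 to 0.027 and Utf1 from -0.071 to 0.99. Between miR-290KO iPSC and ESC, Sox2 ran from -0.27 to 0.063 and Sall4 from -0.21 to 0.039. Between miR-302KO iPSC and ESC, Nanog ran from -1.41 to -0.14, Sall4 from -0.23 to 0.056 and Utf1 from -0.56 to 0.50, with 0 to 1 called. In the genotype by cell type term, Pou5f1 ran from -0.49 to 0.78, Sox2 from -0.058 to 0.29, Nanog from -0.042 to 1.22, Sall4 from -0.14 to 0.14 and Utf1 from -0.25 to 0.80. Called partner proteins in the double KO ran from 8 to 15.

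Counts over all genes moved more: from 201 in miR-290KO against WT iPSC to between 2 (without its colony 2) and 409 (each library as a sample), and from 4 in miR-302KO to between 2 and 1273 (without its colony 2). The cause of these shifts was not tested. Utf1 and the genes with few double KO reads are limited by depth, at 7 reads for Utf1 over the 4 libraries.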

Other observations

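Klf4, the third factor used for reprogramming, and Klf2 were looked at library by library after their values were seen. Klf4 had 169, 121 and 219 CPM in WT iPSC and 5.06 to 17.7 CPM in the double KO. It had 59.3 to 140 CPM in miR-290KO iPSC and 166 to 291 CPM in miR-302KO iPSC, and these did not overlap. In ESC it had 131 and 103 CPM (miR-290KO) and 218 and 258 CPM (miR-302KO), again without overlap. Klf4 is 1 of the 20 listed genes known to carry Oct4-Sox2 elements or bound enhancers. Between the single KO genotypes, 0 of these 20 were called by limma in iPSC and 0 in ESC. Klf2 had 5.54 to 22.9 CPM in the double KO and 484 to 1055 CPM in 14 of the other libraries. In the remaining one, colony 1 library 2 of miR-302KO iPSC, Klf2 had 207 CPM while Klf4 had 291 CPM and Esrrb 279 CPM.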
